A study of Mus musculus with 14 samples.

Results

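Ctnnbip1, Park7 and Pex14 are protein-coding genes that lie near Mir34a, the gene of microRNA miR-34a, on mouse chromosome 4. They were chosen for that position, and every spot whose clone accession maps to one of them was taken. This gave 3 probes, 1 for each gene, out of 20160 probes on the array, and 3 of the 1380 genes that could be named. In the order of protein-coding genes along the chromosome, Ctnnbip1 lies nearest to Mir34a with 6 genes between them, and Pex14 lies farther out on the same side with 17 genes between. Park7 lies on the opposite side of Mir34a, with 8 genes between.

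The tested animals were male C57BL/6 mice, 17 weeks old, whose genotype is given as mir-34a minus. Brain RNA of 3 of these mice and thymus RNA of 4 was hybridised to spotted cDNA arrays, 2 arrays for each mouse and organ with exchanged dyes (6 brain and 8 thymus arrays). The second channel of every array held a pool of RNA from the same organ of control males of the same age and background, for which 4 animals are listed, although the labelling protocol gives another number. The construction of the allele, the length of DNA it removes and whether the controls were littermates are not stated in the labels. The array carries no named probe for Mir34a, so the genotype could not be checked in these data.

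MicroRNAs guide silencing complexes to messenger RNAs, mainly through pairing of the short seed near their 5′ end, and the paired messenger RNA is then translated less or degraded. miR-34a is known as a microRNA switched on by the tumour suppressor p53, and it is abundant in the adult brain. Genes that flank an engineered allele are inherited with it, and their expression is therefore commonly inspected alongside the intended target. The 3 genes have separate roles. Ctnnbip1 encodes ICAT, a small protein that binds beta-catenin and keeps it from TCF factors in the Wnt pathway. Park7 encodes DJ-1, a protein that responds to oxidative stress and whose loss causes a recessive early-onset form of Parkinson disease in humans. Pex14 encodes a membrane protein of the peroxisome at which receptors carrying newly made peroxisomal enzymes dock.

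The element around which the 3 genes are arranged is shown first, because the position of the genes relative to it is the reason for their choice. The Mir34a hairpin is 102 bases long and lies at chr4:150068454-150068555 on the plus strand (RefSeq, GRCm38.p6), with the 2 mature arms in capitals.
Mir34a hairpin: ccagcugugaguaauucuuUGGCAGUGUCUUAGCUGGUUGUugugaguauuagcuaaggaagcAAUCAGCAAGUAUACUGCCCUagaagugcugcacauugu
The mature 5′ arm at chr4:150068473-150068494 shares its seed, bases 2 to 8 and here in capitals, with microRNAs encoded elsewhere in the genome. Of the 1738 mature mouse microRNAs in the RefSeq table, 4 carry this seed, and they are shown as sequences of the same seed family. The family also has miR-34c-5p, which is not shown.
mmu-miR-34a-5p: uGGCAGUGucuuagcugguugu
mmu-miR-34b-5p: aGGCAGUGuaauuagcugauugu
mmu-miR-449a-5p: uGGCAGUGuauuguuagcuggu
mmu-miR-449c-5p: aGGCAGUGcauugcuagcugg
The other 3 lie at chr9:51103610-51103632 on the minus strand (miR-34b-5p) and at chr13:113037549-113037570 (miR-449a-5p) and chr13:113036008-113036028 (miR-449c-5p) on the plus strand. None of these microRNAs was measured here.

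Array quality differed between the organs and limits what can be said of the 3 genes. Spots flagged by the scanning software made up 0.812% to 10.7% of each brain array, against 9.32% to 72.4% of each thymus array. A probe counted as detected on an array when its unflagged spot stood at least 2 background standard deviations above local background in at least 1 channel. By this rule the share of detected probes was 56.2% to 94.4% in the brain hybridisations, and in the thymus hybridisations it was 7.75% to 84.9%. No spot of the 3 genes contained saturated pixels. One thymus sample, replicate 1, carries a conflicting tissue label and was taken as thymus from its title and its pool. Because whole organs were profiled, fewer cells of a type and less RNA per cell cannot be told apart.

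In the brain, the ratio of mutant over control pool was above 0 for all 3 genes when averaged over mice, and every mouse lay above 0 for each gene. None of the 3 passed the test, as was the case for all 17586 probes tested in this organ (limma's moderated test of the mouse values against 0, adjusted p under 0.05, 0% called). At an unadjusted p under 0.05, 1 of the 3 genes was included, Ctnnbip1, beside 785 of all tested probes (4.46%, or 2.68% counting those higher in mutant brain). A ratio above 0 was found for 50.5% of tested probes, and all 3 mice lay above 0 for 14.8% of the 15608 tested probes with a value on all 6 arrays. The pool is shared by all arrays of an organ and counts as 1 control sample, so its own deviation enters every ratio and the spread among control animals is left out of the error. The members were looked at with earlier results known, and these counts are a description.

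Ctnnbip1 had the highest brain ratio of the 3 genes, with large disagreement between arrays of the same mouse. On the arrays with the mutant RNA in Cy3, the log2 ratio was 0.06 in mouse 1, -0.23 in mouse 2 and 0.98 in mouse 3. On the arrays with the mutant RNA in Cy5, it was 0.30 in mouse 1, 0.65 in mouse 2 and -0.13 in mouse 3. Thus 4 of 6 arrays lay above 0 and 2 below, where 30.2% of the 15608 probes had at least 4 arrays above 0, and the arrays below 0 came from different mice and different dye orientations. The averages of each mouse's arrays were 0.18, 0.21 and 0.43, all above 0.

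Over the mice, Ctnnbip1 averaged a log2 ratio of 0.27 ± 0.14 (SD, n = 3), a 1.21-fold higher level in mutant brain with a 95% confidence interval of 1.07 to 1.36. The unadjusted p was 0.00757 and the adjusted p 0.846 in limma's moderated test. Of the tested probes, 1.31% had a ratio at least this high. Without borrowing spread across probes, the exact sign-flip permutation test gave a two-sided p of 0.25, the smallest that 3 mice allow.

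The agreement among mice was closer than the agreement among arrays, which is not particular to Ctnnbip1. The median SD over all probes compared was 0.22 over arrays and 0.10 over mouse averages. The Cy5 array minus the Cy3 array differed by 0.24 in mouse 1, 0.87 in mouse 2 and -1.11 in mouse 3, where the median absolute gap over all probes was 0.23, 0.32 and 0.27. The SD over the 6 arrays was 0.47, a spread equalled or exceeded by 7.38% of the 15608 probes compared, whereas the SD over mouse averages was equalled or exceeded by 29.5%. The dye orientations had nearly equal means, 0.27 ± 0.63 with the mutant in Cy3 and 0.27 ± 0.39 with the mutant in Cy5 (SD, n = 3 arrays each). With single arrays as units, a dye term and mouse as a random block, a fit chosen after seeing the data, the same mean had a 95% confidence interval of 0.01 to 0.54 (limma, adjusted p = 0.809). The correlation between arrays of a mouse, estimated over all probes of that fit, was -0.348. A negative correlation narrows the interval of the mean and is not one that differences between mice produce, so the lower bound leans on it.

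The spot of Ctnnbip1 was dim in the brain. Its signal above background was 71 and 81 scanner units in the mutant channel of mouse 1, 63 and 78 in mouse 2 and 140 and 76 in mouse 3. The pool channel of the same arrays held 67 and 85, 51 and 58, and 85 and 84 units. The highest ratio came from the array on which the mutant channel read 140 units and the pool 85, replicate 5. The ratios after normalisation did not follow these signals directly, since replicate 3 read 63 and 51 units and had a ratio of -0.23. In the authors' deposited table after centring, replicate 5 stood at 0.34 and the highest array was replicate 4, at 0.99. In background SDs, the brain signals ran from 0.927 to 5.83, and the spot was detected on 4 of 6 arrays, in the mutant channel of 3 and in the pool channel of 3. It was not detected on either array of mouse 2.

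The size of the Ctnnbip1 ratio depended on single arrays and on the treatment of background. It was 0.09 without array replicate 5, 0.13 without replicate 4, 0.42 without replicate 3 and 0.46 without replicate 6, and it ranged from 0.12 (foreground medians) to 0.56 (normexp without an offset) over the 14 other settings in which it was tested, always above 0 and never past the threshold.

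**Figure D1:**
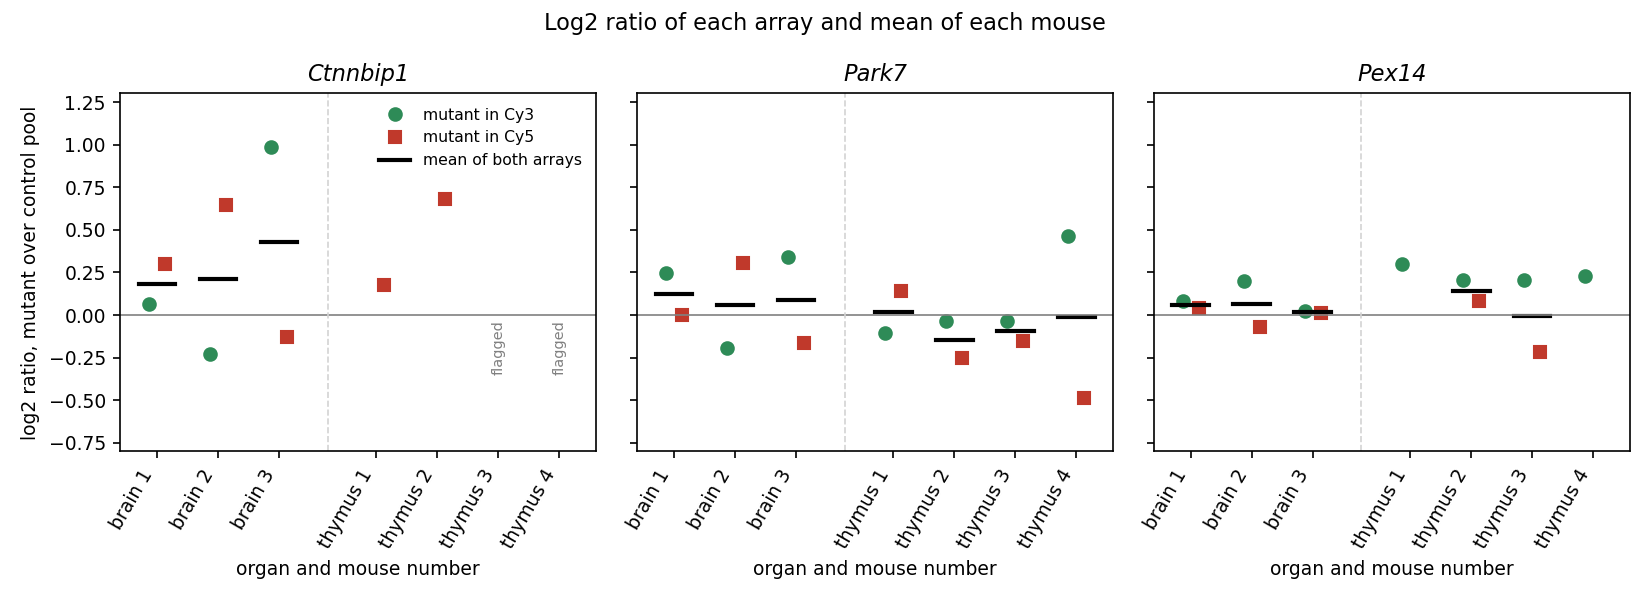
Log2 ratio of mutant over control pool (vertical axis, no unit) on each array, by organ and mouse, for the 3 genes. Green circles are arrays with the mutant RNA in Cy3, red squares arrays with it in Cy5, and black bars the mean of a mouse's arrays where both gave a value; flagged spots are not drawn, and the word flagged marks a mouse with both spots flagged. For Ctnnbip1 the brain arrays run from -0.23 to 0.98 while the bars of the mice run from 0.18 to 0.43.

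Park7 lay closer to 0 in the brain. With the mutant RNA in Cy3, its log2 ratio was 0.24 in mouse 1, -0.19 in mouse 2 and 0.34 in mouse 3. With the mutant RNA in Cy5, it was 0.00 in mouse 1, 0.31 in mouse 2 and -0.16 in mouse 3. As for Ctnnbip1, replicates 3 and 6 were the arrays below 0. A value below 0 on these arrays and above 0 on the other 4 was found for 2.79% of the 15608 tested probes with all 6 values, a pattern picked after seeing the values.

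As processed here, the mouse averages of Park7 in the brain were 0.12, 0.06 and 0.09, all above 0 and close together. Their mean was 0.09 ± 0.03 (SD, n = 3), with a 95% confidence interval of -0.04 to 0.22, or 0.972-fold to 1.16-fold (limma, adjusted p = 0.846). Ratios at least this high were found for 14.1% of tested probes. The closeness of the mouse averages arose from arrays that differed more, since the SD over the 6 arrays was 0.24 and the Cy5 minus Cy3 gaps were -0.24, 0.50 and -0.51. That array SD was equalled or exceeded by 42.5% of the probes compared, and the SD over mouse averages by 92.3%. Without replicate 4 or without replicate 5 the mean was 0.01. In the authors' deposited table after centring, mouse 1 stood at -0.31 on replicate 1 and 0.11 on replicate 2. Its average thus lay below 0 there, and the mouse averages were farther apart.

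The Park7 spot was detected on 5 of 6 brain arrays, the exception being replicate 3. The mutant channel reached the limit on 3 arrays and the pool channel on 5, and neither array of mouse 2 had a mutant signal above the limit. The signal above background was 228 units in the mutant channel and 302 in the pool channel of replicate 1, the brightest array. On the other 5 arrays it lay between 60 and 105 units in the mutant channel and between 66 and 96 in the pool channel. The signal of replicate 1 thus stood apart in both channels, and its ratio did not.

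As processed here, Pex14 was the most even of the 3 genes in the brain and the nearest to 0. On the Cy3 arrays of the mutant RNA its log2 ratio was 0.08 in mouse 1, 0.20 in mouse 2 and 0.02 in mouse 3, and on the Cy5 arrays it was 0.04, -0.07 and 0.01. Only replicate 4 lay below 0. The mouse averages of 0.06, 0.06 and 0.02 gave a mean of 0.05 ± 0.03 (SD, n = 3), with a 95% confidence interval of -0.08 to 0.18, or 0.945-fold to 1.13-fold (limma, adjusted p = 0.883). Ratios at least this high were found for 28.1% of tested probes, and 96.8% of probes had an array SD of at least that of Pex14, 0.09.

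The even ratios of Pex14 came from a spot of low signal, detected on 4 of 6 brain arrays. Its signal was 76, 32, 76, 30, 101 and 79 units in the mutant channel and 72, 53, 37, 58, 109 and 79 units in the pool channel of replicates 1 to 6. The dimmest mutant signals were those of replicates 2 and 4, on which the spot was not detected. Its direction is not settled, because the mean was -0.02 without background correction, -0.15 in the authors' deposited table after centring and -0.01 on the Cy5 arrays alone, in each case past no threshold. The evenness was not kept in that table either, where the brain arrays of Pex14 ran from -1.35 (replicate 4) to 0.45 (replicate 3). This range was wider than that of Park7 (-0.37 to 0.43) or of Ctnnbip1 (-0.45 to 0.99) in the same table.

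**Figure D2:**
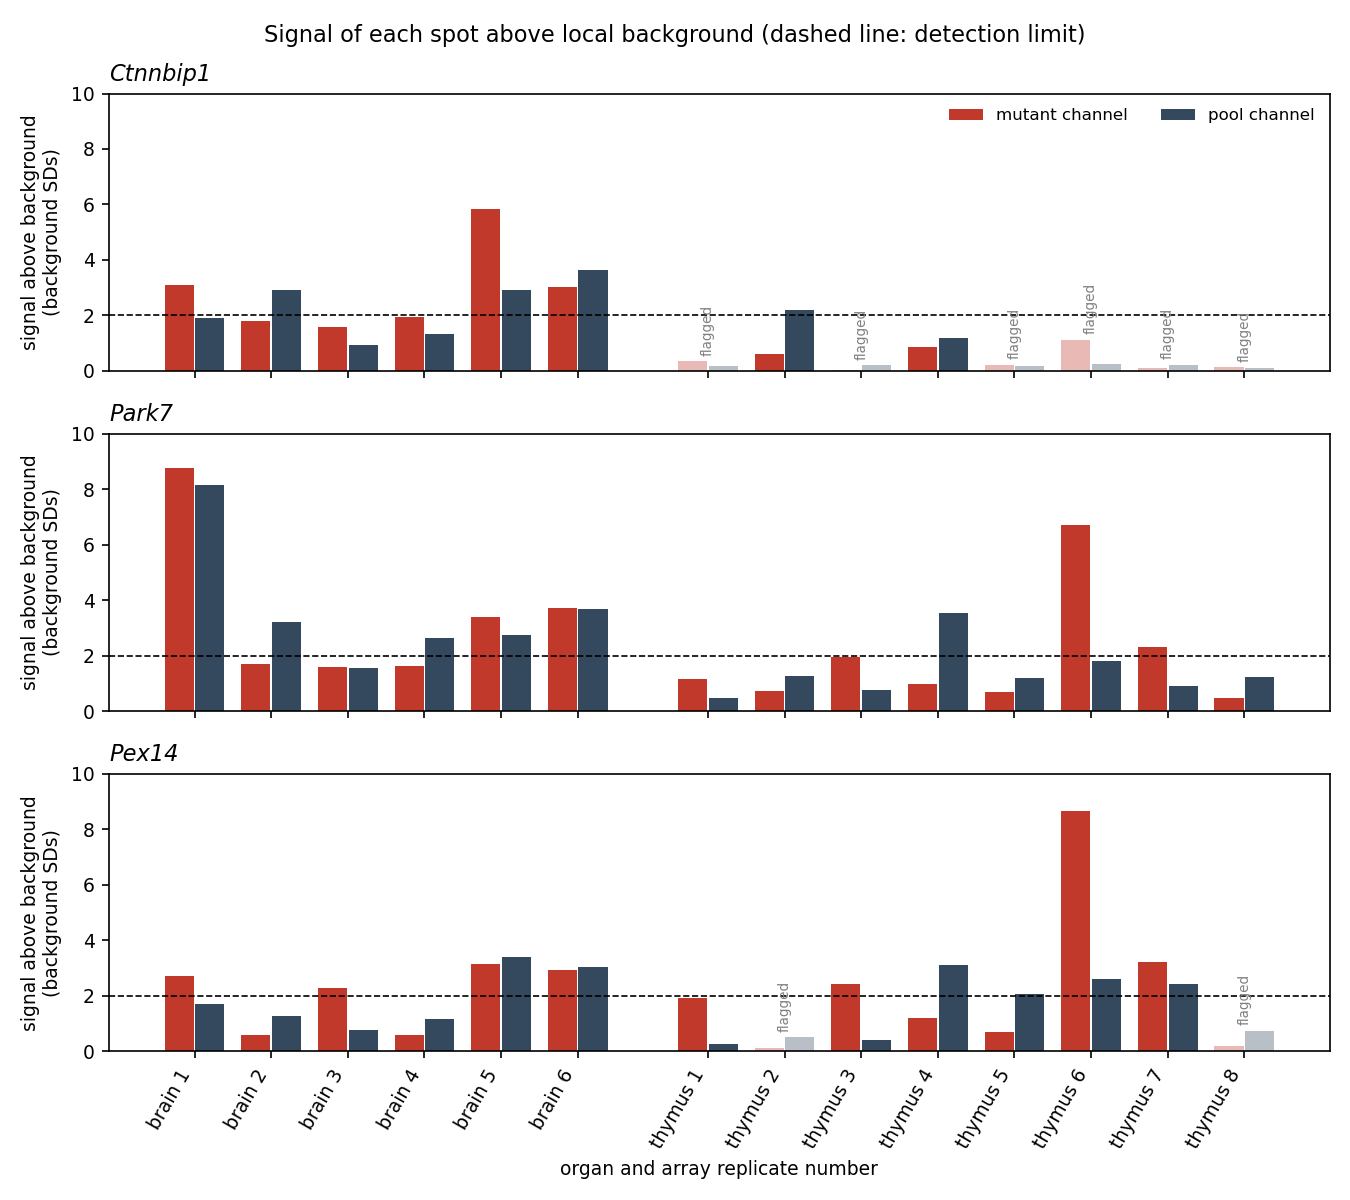
Signal of each spot above local background, in standard deviations of the local background (vertical axis), for each brain and thymus array. Red bars are the mutant channel, dark blue bars the pool channel, pale bars flagged spots, and the dashed line marks the detection limit of 2 SDs. Ctnnbip1 passes the line on 4 of 6 brain arrays and on 1 of 8 thymus arrays.

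In the thymus the 3 genes were measured less completely. Of 5321 probes tested there, none passed (limma, smallest adjusted p = 0.853, 0% called; 267 probes or 5.02% at an unadjusted p under 0.05). Pex14 was the only one of the 3 genes that could be tested, and it did not pass.

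Pex14 had unflagged spots on 6 of 8 thymus arrays and was detected on 5 of them. With the mutant RNA in Cy3, its log2 ratio was 0.30 in mouse 1, 0.20 in mouse 2, 0.20 in mouse 3 and 0.23 in mouse 4. With the mutant RNA in Cy5, it was 0.08 in mouse 2 and -0.22 in mouse 3, and the spots of mice 1 and 4 were flagged. The values thus separated by dye, with a mean of 0.23 ± 0.04 (SD, n = 4) over the Cy3 arrays and -0.07 ± 0.21 (SD, n = 2) over the Cy5 arrays, and whether the dye accounts for this was not tested. Both arrays were available for mice 2 and 3, at 0.14 and -0.01, giving 0.07 ± 0.10 (SD, n = 2) with a 95% confidence interval of -0.20 to 0.34 (limma, adjusted p = 0.940). The sign turned when replicate 6 was left out (-0.04).

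Park7 had no flagged spot in the thymus, but it was detected on 3 of 8 arrays and therefore missed the filter. With the mutant RNA in Cy3, its log2 ratio was -0.11 in mouse 1, -0.03 in mouse 2, -0.03 in mouse 3 and 0.46 in mouse 4. With the mutant RNA in Cy5, it was 0.14, -0.25, -0.15 and -0.48 in the same order of mice. The widest gap was in mouse 4, whose Cy5 array, replicate 8, was the one with the fewest detected probes. The mouse averages were 0.02, -0.14, -0.09 and -0.01, 3 of them below 0, with a mean of -0.06 ± 0.07 (SD, n = 4).

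For these Park7 values the exact sign-flip permutation test gave a two-sided p of 0.375, where 4 mice allow no less than 0.125. With the filter on dim probes lifted, the 95% confidence interval was -0.22 to 0.11 (limma, adjusted p = 0.929 over 8690 probes). The mean changed sign without replicate 8 (0.06), and it was -0.18 without replicate 7.

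Ctnnbip1 could not be measured in the thymus. Its spot was flagged on 6 of 8 arrays. The unflagged arrays, replicates 2 and 4, both carried the mutant RNA in Cy5 and gave log2 ratios of 0.18 and 0.68. Only replicate 2 reached the detection limit, and it did so in the pool channel, while the mutant channel reached it on 0 arrays. No thymus had a value from both dye orientations, so the brain value of Ctnnbip1 has no counterpart there.

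The difference between the organs could be tested for Pex14 only. Its brain minus thymus difference was -0.02, with a 95% confidence interval of -0.26 to 0.22 (limma, adjusted p = 0.965). No probe passed among the 5160 tested (0% called, smallest adjusted p = 0.692), and 355 (6.88%) had an unadjusted p under 0.05. For Park7, the brain mice lay at 0.06 to 0.12 and the thymus mice at -0.14 to 0.02, so that the organs did not overlap. Such a separation with brain above thymus was found for 4.42% of the 1856 probes with all 7 values. With the filter lifted, the Park7 difference was 0.15, with a 95% confidence interval of -0.03 to 0.33 and an adjusted p of 0.722 in limma over 8568 probes, none of which passed.

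The brightness of the spots, which sums mutant and pool RNA, gave no difference between the organs that passed the test for any of the 3 genes. Flagged spots were left out, and 1 array was enough for the value of a mouse. After quantile normalisation, Ctnnbip1 had a mean log2 intensity of 6.35 ± 0.18 over 2 thymus values and 6.59 ± 0.07 over 3 brain values (SD), a difference of -0.24 (limma, adjusted p = 0.597). These thymus values came from 1 array each, those not flagged, and leave out the flagged spots of Ctnnbip1 there. With flagged spots kept, an alternative added later, the difference was -0.32 over 7 values (limma, adjusted p = 0.231). Park7 had 6.58 ± 0.18 over 4 thymus values and 6.82 ± 0.31 over 3 brain values (SD), also -0.24 (limma, adjusted p = 0.614), which was -0.02 without mouse 1 and -0.38 without mouse 2 or mouse 3. For Pex14 the sign was opposite, at 6.72 ± 0.16 over 4 thymus values and 6.40 ± 0.20 over 3 brain values (SD), a difference of 0.32 with a 95% confidence interval of -0.03 to 0.68 (limma, adjusted p = 0.426). The intervals allow differences of either sign for each gene. The intensities hold the offset of 50 from background correction, so differences between dim spots are drawn in toward 0. Of 18600 probes compared in this way, 210 passed (1.13%), and 3 passed with mouse as a block over the animals that gave both organs. The count was 61 without mouse 1, 11 without mouse 2, 10 without mouse 3 and 102 without mouse 4. The 210 probes included Stmn2, a neuronal gene that was higher in brain, and Satb1, a thymocyte chromatin organiser that was higher in thymus, the only markers past the threshold among 6 neuronal, 4 thymocyte and 9 other markers compared.

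The other genes around Mir34a gave a reference for the neighbourhood. Among the 200 protein-coding genes in a window of 100 on either side, 9 had a named probe and 8 could be tested in the brain. Of these 8 genes, 6 lay above 0 and 2 below, none passed (limma, smallest adjusted p = 0.846), and their median log2 ratio was 0.06, where the median of all tested probes was 0.00. Ctnnbip1 was the 1 gene of the 8 with an unadjusted p under 0.05. Without the 3 genes, 5 were left, 3 above 0 and 2 below, with a median of 0.01. In a wider window of up to 200 genes on either side, which holds 306 genes, 20 were tested, of which 10 lay above 0 and 10 below and 0 passed. An unadjusted p under 0.05 was found for 4 of them, 2 higher and 2 lower. Among them were Ctnnbip1, Cela3b at 0.27 ± 0.20 and 1700013G24Rik at -0.20 ± 0.11 (SD, n = 3 each), the last 2 named after their values were seen. Cela3b, a pancreatic elastase gene far from Mir34a, thus had a ratio as high as that of Ctnnbip1.

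On the side of Ctnnbip1 and Pex14, the nearest other gene with a named probe was Ube4b, which encodes a ubiquitin ligase, at 0.01 ± 0.05 (SD, n = 2). Ube4b lies between Ctnnbip1 and Pex14 in the gene order. Farther out, Mtor, the kinase of the mTOR complexes, stood at 0.07 ± 0.15 and Plod1, a collagen lysyl hydroxylase, at 0.08 ± 0.11 (SD, n = 3 each). Mtor was above 0 in mice 1 and 2 and below 0 in mouse 3. Beyond Park7 on the opposite side, Camta1, a transcription factor of neurons, stood at -0.02 ± 0.14 (SD, n = 3), with mouse 3 at -0.17 and the others above 0. Srm, the spermidine synthase gene, named although outside the rule for tested genes, was detected on 2 of 6 brain arrays and was not tested, its mice lying at 0.01, 0.14 and -0.17. In the thymus, Pex14 was the only gene of the window that could be tested.

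**Figure D3:**
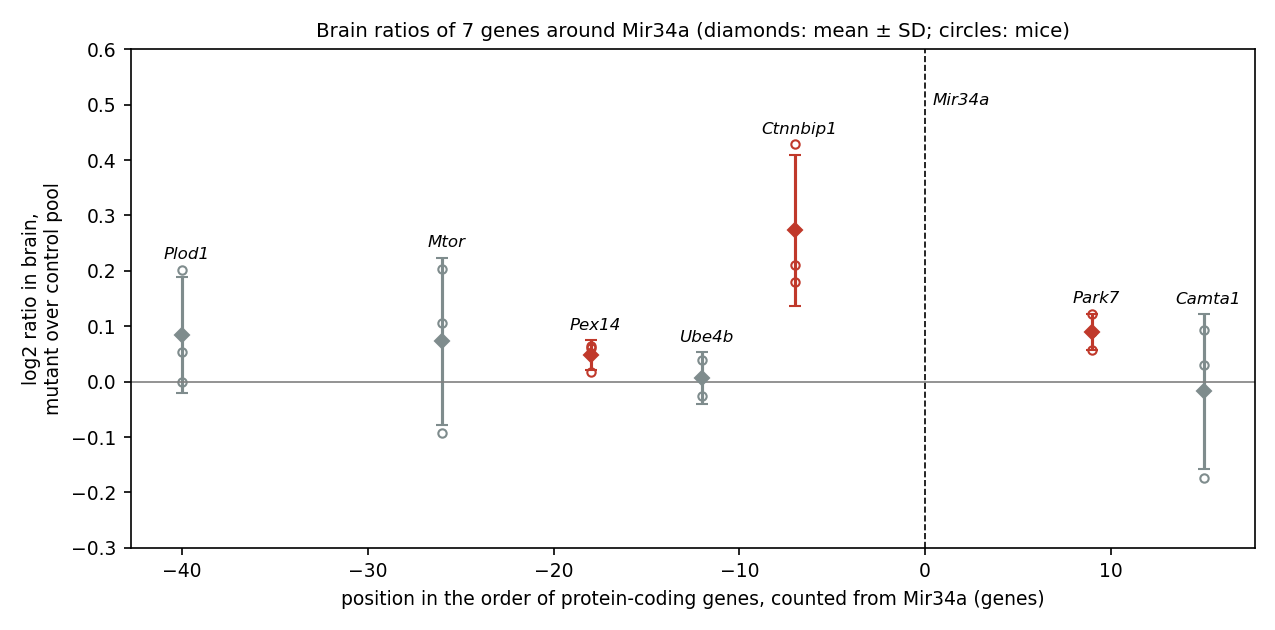
Log2 ratio of mutant over control pool in the brain (vertical axis, no unit) for 7 of the 8 tested genes around Mir34a, by their place in the order of protein-coding genes counted from Mir34a. Diamonds with bars are the mean and SD over mice, open circles the mice, and red marks Ctnnbip1, Park7 and Pex14. Ctnnbip1 at 0.27 is the highest mean drawn, and Ube4b beside it lies at 0.01.

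Other genes of the pathways to which the 3 genes belong were sparsely covered by named probes. Only 1453 of the 20160 probes could be named, so further genes of these lists may be on the array without a name. Of 83 Wnt and beta-catenin genes listed, 7 had a named probe and 4 were tested in the brain. Of these, 3 lay above 0, 1 lay below and 0 passed, and Ctnnbip1 was the only one with an unadjusted p under 0.05. Beside Ctnnbip1 these were Fzd3, a Wnt receptor, at 0.07 ± 0.08, Dkk3, a secreted protein of the Dickkopf family, at 0.05 ± 0.15, and Wnt10b, a Wnt ligand, at -0.04 ± 0.12 (SD, n = 3 each). Each of these 3 genes had mice on both sides of 0. None of the 7 was tested in the thymus.

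Of 54 genes of Parkinson disease and oxidative stress, 6 had a named probe and 4 were tested in the brain, 2 above 0 and 2 below, with 0 passing. Prdx6, a peroxiredoxin that reduces peroxides, stood at 0.14 ± 0.13 and was above 0 in every mouse. Htra2, a mitochondrial protease, stood at -0.09 ± 0.10, and Gclm, a subunit of the enzyme that starts glutathione synthesis, at -0.07 ± 0.03 (SD, n = 3 each). Both were below 0 in every mouse, against Park7 above 0, and none was tested in the thymus.

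Of 74 peroxisome genes, 7 had a named probe and all 7 were tested in the brain, 6 above 0 and 1 below, with 0 passing. Their median of 0.05 was the value of Pex14. The highest was Acox3, an oxidase of branched-chain fatty acids, whose mean of 0.91 ± 1.52 (SD, n = 3) rested on mouse 2 at 2.66, against -0.05 and 0.13 in mice 1 and 3. Idh1, an isocitrate dehydrogenase of cytosol and peroxisome, stood at 0.07 ± 0.14 and Pex3, which places proteins into the peroxisomal membrane, at 0.06 ± 0.09 (SD, n = 3 each). The remaining 3 genes lay between -0.05 for Pex5l and 0.03 for Lonp2. In the thymus Idh1 stood at -0.10 ± 0.09 (SD, n = 2), beside Pex14 at 0.07.

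Marker genes of the cell types in the organs were examined beside the 3 genes. In the brain, 5 of 6 neuronal markers tested lay above 0, with a median of 0.12 and none passing. Nsf, a factor of vesicle fusion, stood at 0.13 ± 0.03 and Syp, synaptophysin, at 0.13 ± 0.05 (SD, n = 3 each). Oligodendrocyte markers lay above 0 in 2 of 3 cases with a median of 0.09, among them Tppp at 0.13 ± 0.10 and Olig1 at 0.09 ± 0.18 (SD, n = 3 each), and the 1 astrocyte marker, Ntsr2, stood at 0.13 ± 0.19 (SD, n = 3). All 4 markers tested from the list of muscle, fat and blood, none of them a blood gene, lay below 0 with a median of -0.05. Among them were Tcap at -0.18 ± 0.19 and Lpl at -0.05 ± 0.11 (SD, n = 3 each). These brain marker ratios were of the size of those of Park7 and Pex14, and their part in the ratios of the 3 genes was not tested. In the thymus, 3 of 4 thymocyte markers lay above 0 with a median of 0.09, Cd4 stood at 0.15 ± 0.03 (SD, n = 3) and Satb1 at 0.09 ± 0.04 (SD, n = 4). The 1 marker of thymic stroma, Epcam, was at 0.37 (n = 2), and both tested markers of muscle, fat and blood lay below 0. Tcap, not tested there, was above 0 in each thymus with a value (0.01, 0.52 and 0.08), and the remaining untested marker of this list lay on both sides of 0.

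The summed intensity of the neuronal markers was 583 to 778 in the thymus and 1068 to 1728 in the brain, and that of the thymocyte markers 623 to 834 in the thymus and 394 to 491 in the brain. Both stood on the side of their labels, although 1 of the 6 neuronal markers was higher in thymus. Neither list overlapped between the organs, but this was not particular to them. The sums of the next lists did not overlap either, and how often other sets of probes separate in this way was not computed. Oligodendrocyte markers summed to 186 to 323 in the thymus and 351 to 384 in the brain, with 1 of 3 higher in thymus, and markers of muscle, fat and blood to 370 to 431 in the thymus and 455 to 685 in the brain. The single markers of the remaining lists did not follow their labels, as the astrocyte marker Ntsr2 stood at 94.8 to 164 in the thymus and 99.6 to 134 in the brain, and the stromal marker Epcam at 125 to 159 in the thymus and 106 to 332 in the brain, with a higher mean in the brain.

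The genes whose ratios over the 6 brain arrays most resembled each of the 3 were found among 1172 named probes with all 6 values, by the root mean square difference in log2 ratio. For Ctnnbip1 they were Slc43a3 at 0.224 and Epha5 at 0.245, where the median probe differed by 0.540. For Park7 they were Nrip2 at 0.0660 and 2700081O15Rik at 0.0861, with a median of 0.316, and for Pex14 they were Ercc4 at 0.0542 and Arf4 at 0.0597, with a median of 0.234. None of these 6 genes lies on chromosome 4. The closest match of Ctnnbip1 was thus farther from it than those of Park7 and Pex14 were from them.

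**Figure D4:**
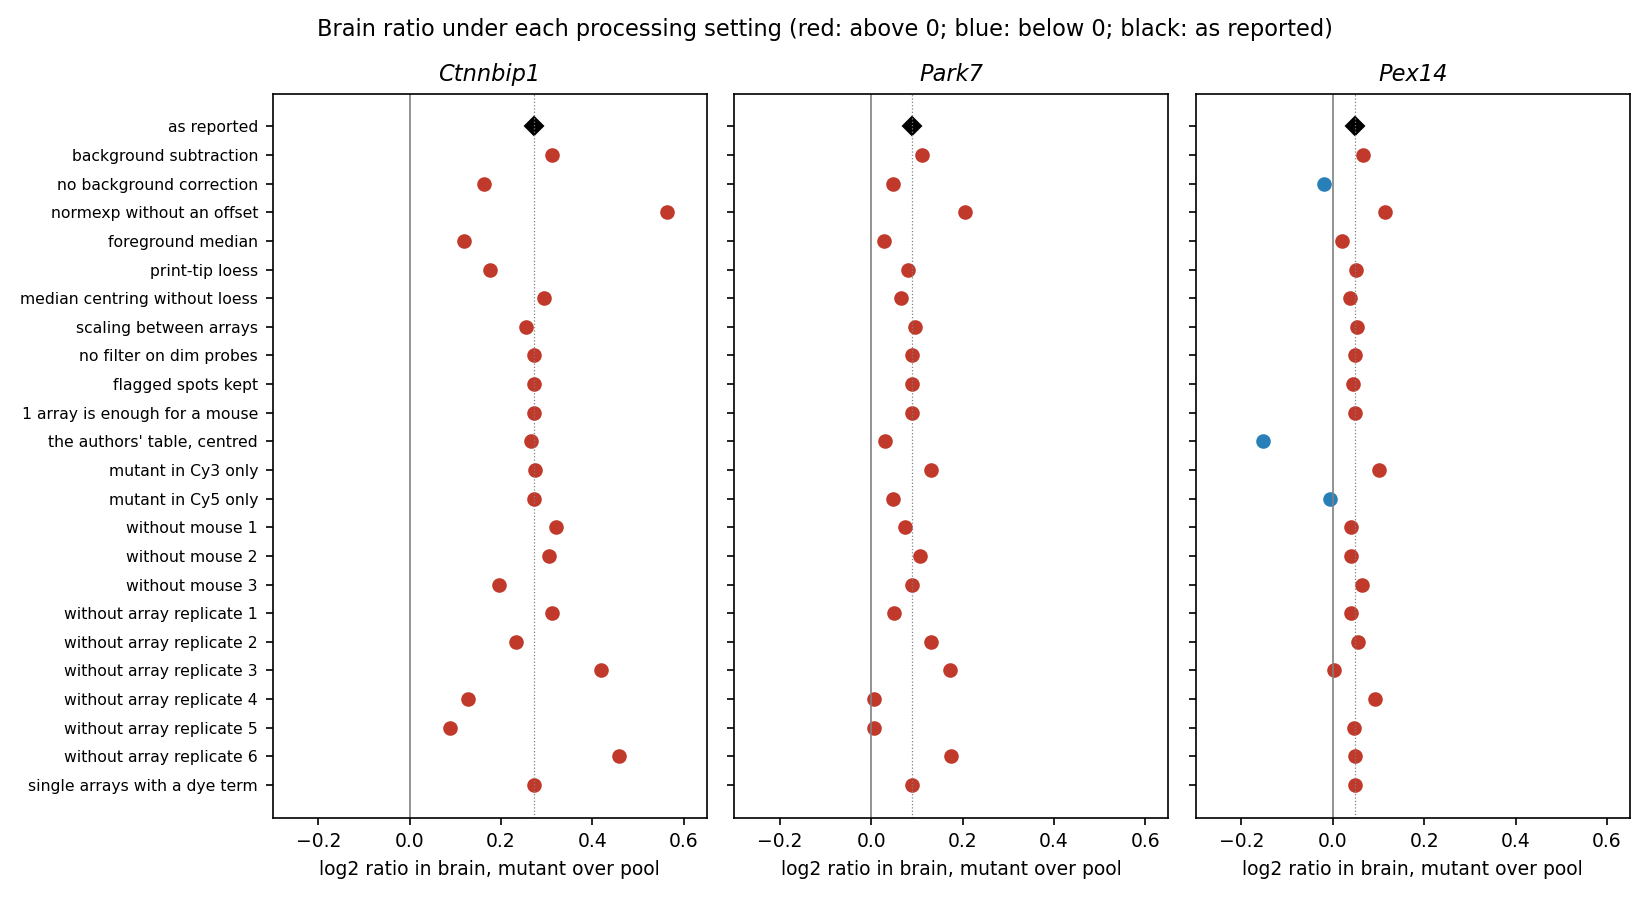
Mean brain log2 ratio of mutant over control pool (horizontal axis, no unit) under each processing setting (rows) for the 3 genes. The black diamond is the value as reported, red points lie above 0 and blue points below, and the dotted line repeats the reported value. Ctnnbip1 stays above 0 in every row, with 0.09 without replicate 5 as its lowest, Park7 comes within 0.01 of 0 without replicate 4 or 5, and Pex14 is below 0 in 3 rows.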

How the data were processed

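Labelled cDNA from 20 µg of total RNA was hybridised per the labels. The deposited scanner files give the intensity of each spot and its local background in 2 channels, with pixel percent values and flags, per the file headers, and are not normalised. The authors' deposited value table holds log2 ratios, of which 99.7% to 99.9% by column equal the log2 ratio of background-subtracted medians plus 1 constant within 0.01. Its scale and direction are thereby known, its columns are not centred (medians -1.38 to 0.865), and the origin of the constants is unknown. In the authors' deposited table these values count as a score, since some rows hold placeholders beyond 50 in size, which were left out. The table served as an alternative, with flagged spots kept. The scanner, its software and a genome build are not stated in the labels or headers.

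The software was R 4.3.3, limma 3.58.1 and statmod 1.5.0. Normexp (offset 50) served as background correction of foreground means, followed by loess within arrays (span 0.3). Spots with flag -50 had weight 0 and were left out. Ratios were turned to mutant over pool, and both arrays of a mouse were averaged. With the offset, ratios and brightness differences of dim spots are drawn in toward 0, and the number of arrays limits the precision. Testing in an organ required detection on no less than a 0.5 share of its arrays and values from no fewer than 2 mice. Mouse values were tested against 0 with lmFit and eBayes, and Benjamini-Hochberg adjustment ran over all tested probes. The organs' difference was fitted without a block, although mice 1 to 3 gave both organs and are paired by animal, as the labels identify them. Identifiers of mice 3 and 4 have exchanged digits in the file names, so the grouping of their arrays rests on the labels. The deviations of mice 1 to 3 correlated at 0.00219, -0.00894 and -0.00174 across probes. No 2 arrays held identical values. The procedure was also run on the scanner values with known factors put into the mutant channel of randomly chosen probes. That run checked the sign of their ratios and the false calls, and required no share of them to be called.

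Of the probes, 1453 were named through a RefSeq table (GRCm38.p6), 961 by accession and 492 by a synonym. Gene order, but no gene coordinate, was taken from it. The 10 gene lists and the 3 genes were chosen with earlier results of these data known. Named genes are the 3 genes, every tested gene of the window, of each pathway list the 3 of smallest p, of each cell type list the 2 of smallest p, and the 2 genes most like each of the 3; 1 tested gene of the window is counted but not reported here. Srm, Pex5l, Lonp2, Stmn2 and genes of the wider window fall outside this rule and were named after their values were seen.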

Additional observations from a re-analysis of the deposited data

Results flagged for a closer look

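Single arrays stood apart in the signal of a spot, measured in background SDs, in 6 of 26 groups of values examined, where chance nominally marks about 1 group in 20. That rate is the one of Dixon's outlier test for normally distributed values. Whether the signals are so distributed was not tested, so the count is a description. The 26 groups also held log2 ratios over arrays or thymus mice and shares of detected probes, and all 6 marks fell among the signals. The 6 are not independent, since some share an array. For Ctnnbip1 this was the mutant channel of brain replicate 5, at 5.833. For Park7 it was brain replicate 1, at 8.769 in the mutant channel and 8.162 in the pool channel, then thymus replicate 6 at 6.706 in the mutant channel and thymus replicate 4 at 3.524 in the pool channel. For Pex14 it was the mutant channel of thymus replicate 6, at 8.667. Signals of spots with a flag were included. None of the log2 ratios examined in the same way, over the arrays of a gene or over thymus mice, stood apart.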

How the results depend on the processing

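Ctnnbip1 and Park7 kept a mean brain ratio above 0 and failed the test in all 14 alternatives that gave a value, and with each mouse or array left out (0.088 to 0.458 for Ctnnbip1, 0.0055 to 0.174 for Park7). None of the 3 genes could be tested under detection on every array. The brain ratio of Pex14 turned to -0.0183 without background correction, -0.153 in the authors' table and -0.0062 on Cy5 arrays. In the thymus Pex14 turned to -0.364 in that table and -0.0692 on Cy5 arrays (-0.0384 to 0.173 with a mouse or array left out), and its difference between organs to 0.212 and 0.0630 (-0.126 to 0.0860). Flagged spots were kept in that table, so its thymus value rests on 4 mice, against 2 as processed here. The flagged Pex14 spots, thymus replicates 2 and 8, stood there at -2.88 and -2.38. Both arrays of mouse 2 stood at 0.78 and 0.51, and those of mouse 3 at -0.01 and 0.04. The Pex14 difference also turned without brain replicate 4 (0.0253) and without thymus replicate 3 (0.0110). Thymus Park7 was 0.0723 on Cy3 arrays and -0.188 on Cy5 arrays (-0.176 to 0.0606). The number of probes past the threshold was 1 in brain with foreground medians, on Cy5 arrays and, in a fit added after seeing the data, with single arrays and a dye term (0 to 1 with a mouse or array left out). It was 2 in thymus with single arrays (0 to 1) and 1 for the organs' difference with foreground medians. The single probes in each organ with a mouse left out were called without mouse 2. None of these probes has a gene name here, and none measures the 3 genes. The neighbours' median was -0.0025 in the wider window and 0.0066 without the 3 genes, an alternative added later. For brightness, 3 probes passed with the mouse as replicate block against 210 without it, and 10 to 102 without single mice. With the replicate block the Pex14 ratio differed between organs by -0.0267 (limma, adjusted p = 0.960), and the block changed no other call. Brightness of Park7 turned to 0.0181 with flagged spots kept, also added later. The causes were not tested. Low signal over background limits all 3 genes in both organs.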
